A study of Mus musculus with 8 samples.

Results

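The genes described are the MyD88, IRAK and TAK1 adaptor chain: Myd88, Irak1, Irak2, Irak3, Irak4, Traf6, Tollip, Map3k7, Tab2 and Tab3. They were chosen by gene symbol as components of one signalling route, and all 10 were found among the 53801 genes of the deposited table. Bulk RNA-seq covered FACS-sorted cortical microglia of 8 mice, killed on postnatal day 30 at 4 h after an injection into one cerebral ventricle. Mice 1 to 4 received IL-33 and mice 5 to 8 received vehicle, which the table heading names as PBS, with 2 females and 2 males in each group. The labels give no strain, genotype or IL-33 dose, and they number each of the 8 mice as an animal of its own.

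IL-33, a cytokine, belongs with interleukin-1. Its receptor carries a TIR domain inside the cell, as do the interleukin-1 receptors and Toll-like receptors, and the adaptor MyD88 docks there through its own TIR domain. MyD88 gathers IRAK4, which activates IRAK1 and IRAK2, and these engage the ubiquitin ligase TRAF6. The ubiquitin chains made by TRAF6 are bound by TAB2 or TAB3, which brings in the kinase TAK1, the product of Map3k7, and TAK1 switches on the kinases that lead to NF-kB and to the MAP kinases. TOLLIP and IRAK-M, the product of Irak3, are known mainly from macrophages as restraints on this route. In the brain, microglia carry many of the receptors that use it.

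Recovered depth was 6989640 to 9323677 reads per mouse. The 10 microglial marker genes summed to 132838 to 148757 normalized counts (read counts divided by the size factor of the library) in vehicle mice and to 75140 to 79365 in IL-33 mice. By the limma test described below, 7 of the 10 fell and 1, Itgam, rose, while Cx3cr1 and Aif1 were not called. Over all tested genes 28.5% fell and 29.2% rose. Neutrophil markers S100a8, S100a9, Ly6g and Retnlg were at 0 in all 8 libraries, and the 3 T cell markers summed to at most 3.04. The 3 monocyte markers summed to 61.1 to 91.7 with vehicle and 16.0 to 27.8 with IL-33, with Ccr2 as the 1 of them tested, which fell. The 4 border macrophage markers summed to 616 to 697 and 204 to 250.4, nearly all of it Mrc1 (624 ± 40.1 and 224 ± 24.2, SD, n = 4), the 1 of them tested, which fell. Too low to test, Lyve1 and Cd163 were also lower in mean with IL-33, while Pf4 was higher (9 reads in all vehicle mice and 29 in all IL-33 mice). Sums for 5 neuronal markers were 145 to 252 and 151 to 218. The part of these cells in the results below was not tested. In a bulk sample, fewer cells of a type and less RNA per cell cannot be told apart.

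The comparison asked how the messenger RNA of each link in the chain stood after IL-33. Irak3 rose 14.4-fold by the ratio of means, Irak2 2.42-fold and Myd88 1.87-fold, while Irak1, Traf6 and Map3k7 rose by smaller amounts and Tab2 fell to 0.772 of its vehicle mean. Irak4, Tollip and Tab3 did not pass the test. Of the 10 genes, all of which were tested, 6 rose and 1 fell at an adjusted p under 0.05 (limma on log2 of the normalized count plus 1, with a term for sex, adjusted over 15110 genes). Over all tested genes 29.2% rose and 28.5% fell, 57.7% in all. Groups did not overlap in 7 of the 10 genes, against 52.3% of all tested genes. The median log2 fold change was 0.28 over the 10 genes and 0.02 over all tested genes, and the median absolute change was 0.35 and 0.53. In 7 of the 10 genes the change was below 0.5 in absolute size on the log2 scale.

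**Figure D1:**
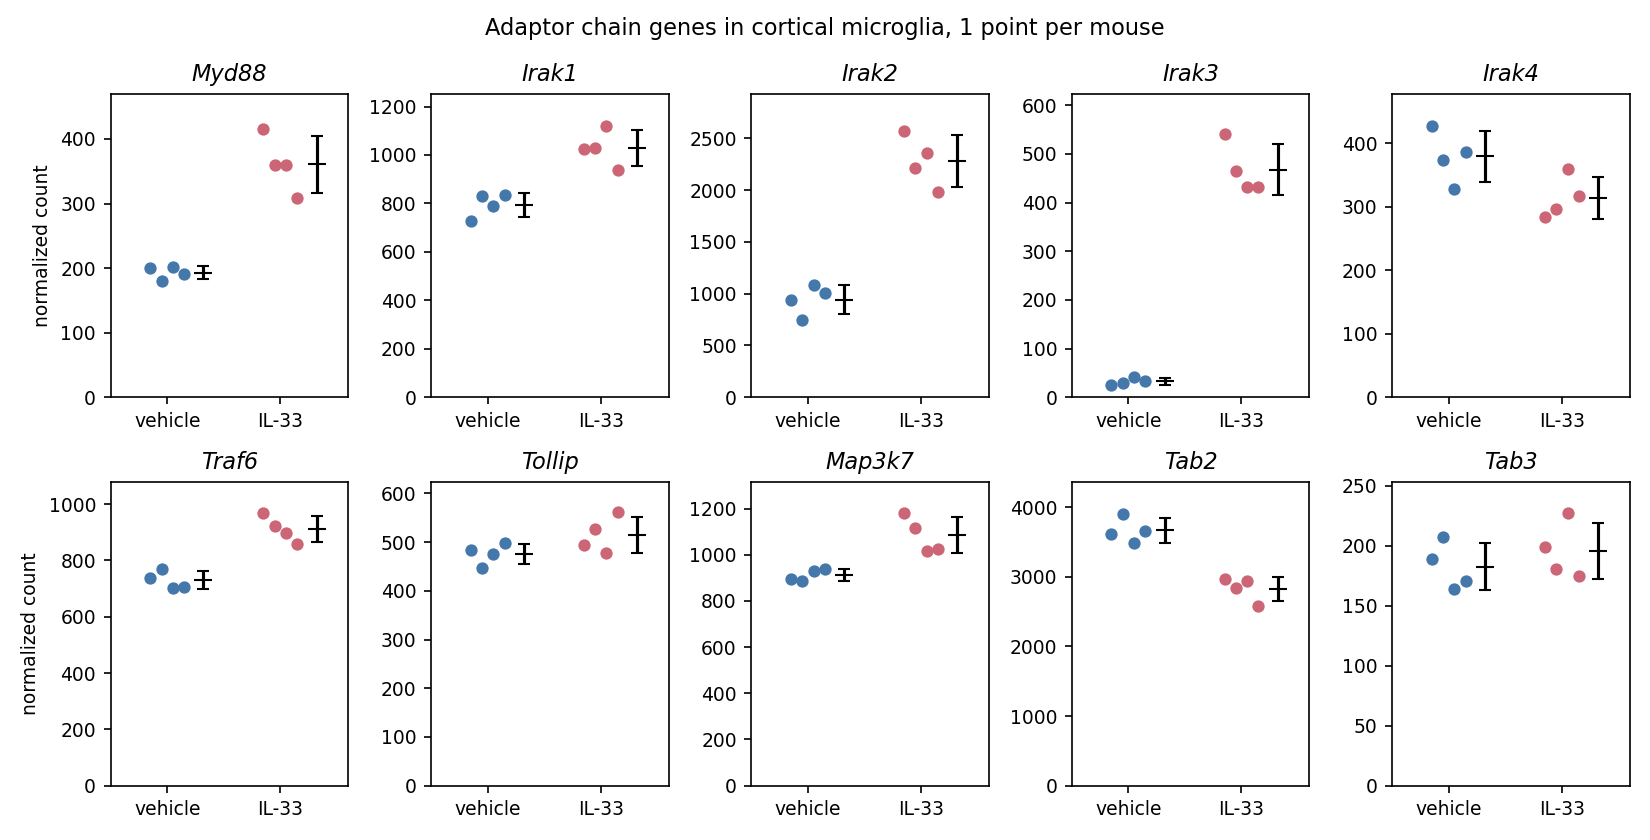
Normalized counts of the 10 genes in each mouse, on linear axes from 0, with vehicle in blue, IL-33 in red and bars for the mean and SD of 4 mice. Irak3 lies between 25.2 and 41.2 with vehicle and between 432 and 542 with IL-33, whereas the groups overlap for Irak4, Tollip and Tab3.

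Myd88, the adaptor that starts the chain (ENSMUSG00000032508, chromosome 9, 119335934 to 119341411, GRCm38), was at 200.2, 179.9, 201 and 190.2 normalized counts in vehicle mice 5 to 8. In IL-33 mice 1 to 4 it was at 416, 359, 359.6 and 308. Every IL-33 mouse lay above every vehicle mouse, and the coefficient of variation was 12.2% with IL-33 and 5.19% with vehicle. On the log2 scale Myd88 rose by 0.89 ± 0.12 (SE, n = 4 mice per group, limma adjusted p = 4.41e-06). Of the exonic length of Myd88, 11.3% is shared with Acaa1a, a peroxisomal thiolase gene on the opposite strand, which fell from 385 ± 67.1 to 259.9 ± 21.1 (SD, n = 4). Reads of the shared bases cannot be assigned without the strand setting, which no label or heading states.

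Tollip, whose product binds IRAK1 and restrains it (ENSMUSG00000025139, chromosome 7, 141874813 to 141918507), ranged from 447 to 497 with vehicle and from 477 to 561 with IL-33. The ranges overlapped. Its log2 fold change was 0.11, with a 95% interval of -0.08 to 0.31 (limma adjusted p = 0.322), so a change of the size seen for Myd88 lies outside the interval.

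Among the IRAK genes, Irak3 had the largest change. Its product is kinase-like, lacks the full catalytic machinery and limits release of signal from the receptor complex in macrophages. Irak3 (ENSMUSG00000020227, chromosome 10, 120141648 to 120202130) was at 25.2, 29.4, 41.2 and 34.0 in vehicle mice 5 to 8, on 27 to 45 reads. It was at 542, 465, 432 and 432 in IL-33 mice 1 to 4, on 388 to 534 reads. The lowest IL-33 mouse thus stood far above the highest vehicle mouse. Irak3 rose by 3.82 ± 0.17 on the log2 scale (SE, n = 4 per group, limma adjusted p = 3.87e-12), larger in absolute size than that of 98.4% of tested genes.

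Irak2, a kinase of the family that sustains the signal in macrophages (ENSMUSG00000060477, chromosome 6, 113638467 to 113695026), was at 938, 746, 1084 and 1003 in vehicle mice 5 to 8. The IL-33 mice 1 to 4 had 2574, 2212, 2358 and 1981. Here too the groups were apart, with vehicle mouse 6 lowest. The rise was 1.28 ± 0.11 on the log2 scale (SE, n = 4 per group, limma adjusted p = 4.20e-08). The counts are per gene and do not separate the splice forms of Irak2, some of which are known as inhibitory in mouse.

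Irak1, the kinase that hands the signal to TRAF6 (ENSMUSG00000031392, chromosome X, 74013914 to 74023918), rose to a smaller degree. It was at 727, 829.9, 789 and 834 with vehicle and at 1023, 1031, 1120.2 and 939 with IL-33. The groups did not overlap, and the log2 fold change was 0.37 ± 0.09 (SE, n = 4 per group, limma adjusted p = 0.00127).

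Irak4, the kinase that acts first (ENSMUSG00000059883, chromosome 15, 94543643 to 94581815), was at 427, 374, 329 and 386 with vehicle and at 283, 297, 359.6 and 316 with IL-33. IL-33 mouse 3 lay above vehicle mouse 7, so the groups overlapped. The log2 fold change was -0.27 with a 95% interval of -0.51 to -0.03, and the limma p of 0.0310 became 0.0532 after adjustment, so Irak4 was not called. Irak4 was called as lower in 7 of 19 alternative settings. Among these were the fits without IL-33 mouse 3 (-0.35, limma adjusted p = 0.0257), without vehicle mouse 7 (-0.36, limma adjusted p = 0.0200) and by edgeR on the recovered reads (-0.29, adjusted p = 0.0402). In the other 12 it was not called, among them males alone (-0.08, limma adjusted p = 0.673) and without vehicle mouse 5 (-0.19, limma adjusted p = 0.189). Twf1, an actin-binding protein gene on the opposite strand that shares 7.87% of the exonic length of Irak4, rose by 0.48 on the log2 scale.

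**Figure D2:**
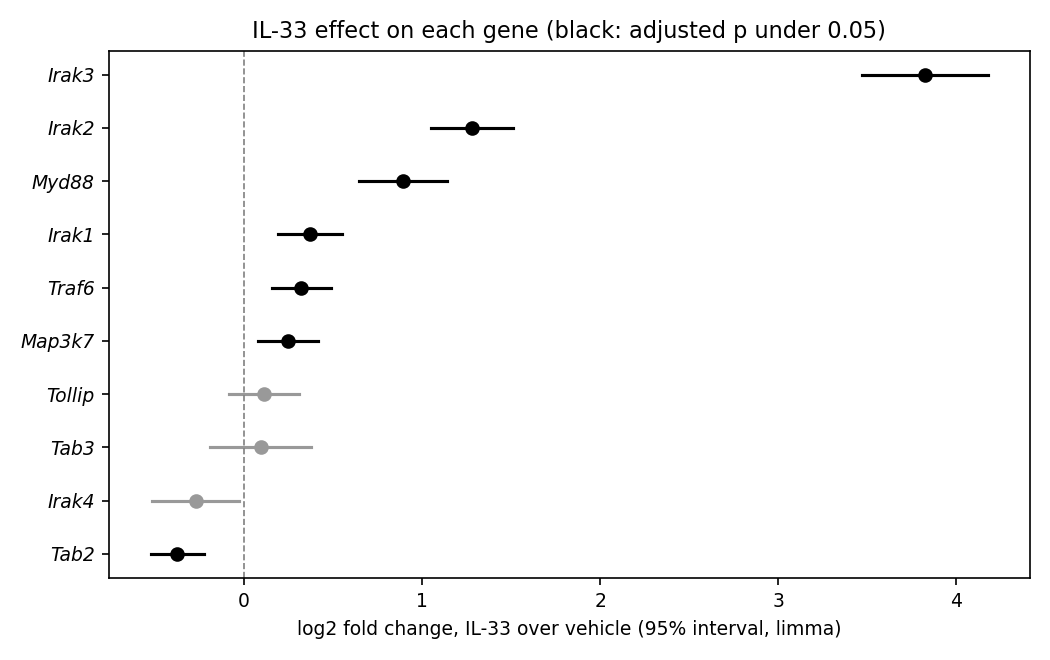
Log2 fold change of IL-33 over vehicle for each gene with its 95% interval from limma, in black where the adjusted p was under 0.05 and in grey otherwise. Irak3 stands at 3.82, followed by Irak2 at 1.28 and Myd88 at 0.89, and Tab2 at -0.37 is the gene that fell.

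Levels of different genes were compared per kilobase of annotated exon. Among the IRAK genes in vehicle mice, Irak2 made up 45.6% ± 4.42 of the summed level per kilobase, Irak1 36.2% ± 3.44, Irak4 16.3% ± 2.26 and Irak3 1.89% ± 0.323 (SD, n = 4). With IL-33 the shares were 55.8% ± 1.65 for Irak2, 23.6% ± 1.38 for Irak1, 6.80% ± 0.921 for Irak4 and 13.8% ± 1.06 for Irak3. Each of the 4 shares was apart between the groups, and Irak3 stood above Irak4 in every IL-33 mouse and below it in every vehicle mouse. The summed level went from 467 ± 29.9 to 925 ± 75.8 normalized counts per kilobase. No p is given for shares or sums, because the genes were chosen with earlier results known.

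**Figure D3:**
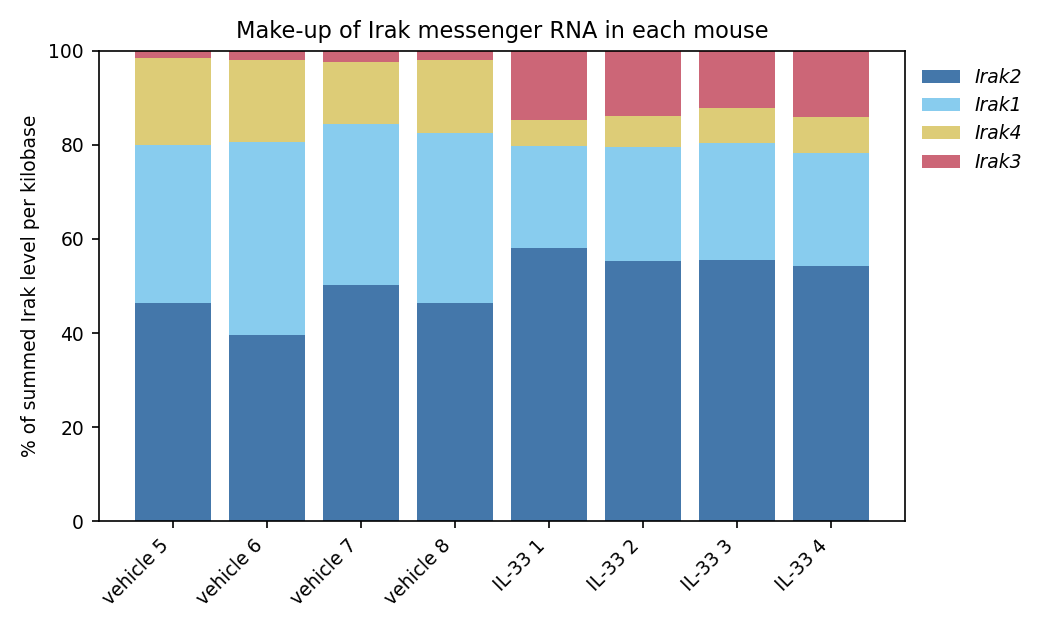
Share of each Irak gene in the summed Irak level per kilobase of exon, 1 bar per mouse, from 0 to 100%. Irak3 takes at most 2.29% in vehicle mice and 12.2% to 14.7% in IL-33 mice, and Irak4 takes 13.4% to 18.6% and 5.61% to 7.60%.

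Ratios of 2 genes within a library were taken for 4 pairs and are a description with no p, because the pairs were chosen with earlier results known. The log2 ratio of Irak3 to Irak4 differed by 4.09 ± 0.26 (SE) between IL-33 and vehicle mice, and that of Irak2 to Irak1 by 0.91 ± 0.15 (SE). Neither ratio overlapped between the groups.

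Of the annotated genes that overlap Irak2 and Irak3, 4 rose and 1 was not called. Over all tested genes 29.2% rose and 57.7% were called. Gm43963, which lies on the opposite strand and shares 196 bases of Irak2 exon, rose from 125 ± 19.2 to 304 ± 52.2 normalized counts (SD, n = 4, log2 1.27, limma adjusted p = 1.88e-06). Gm43964, antisense with no exon shared, and Gm43912, on the same strand with none shared, rose by 1.40 and 0.89 on the log2 scale. Gm47009, antisense to Irak3 with 28 bases shared, had 0, 0, 8 and 1 reads in vehicle mice 5 to 8 and 40 to 53 reads with IL-33. It is among the 4 that rose, but it passed the filter on low values only through the IL-33 mice. Its rise is therefore a description, given with no p. Tmbim4, on the opposite strand with 192 bases of Irak3 exon shared, the longest overlap with Irak3, was not called, at 307 ± 32.0 and 350.2 ± 29.0 (SD, n = 4, log2 0.19, limma adjusted p = 0.165). Without the strand setting, reads of the opposite-strand transcripts and of unspliced Irak2 and Irak3 RNA cannot be told apart. For Gm43912, on the same strand as Irak2, a strand setting would not separate them either.

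The DNA before the annotated starts of the 3 genes that rose most is given here, with Map3k7 added for its motif match. Shared control of these genes was not tested. The sequences are the 250 bases before each start, 5′ to 3′ on the strand of the gene, from RefSeq on GRCm38.p6, and all 10 genes matched, with 13 starts. Capitals mark matches on either strand to any of 6 motifs: the kappa-B consensus bound by NF-kB, TGANTCA (AP-1), TGACGTCA (cyclic AMP response element), the interferon-stimulated response element, GGGCGG (GC box) and TATAAA. The stretches are, in the order printed, chr10:120202131-120202380 and chr10:120201598-120201847 (minus strand), chr6:113638217-113638466 (plus), chr9:119340019-119340268 (minus) and chr4:31963857-31964106 (plus). The RefSeq starts of Myd88 and Map3k7 and the downstream start of Irak3 lie inside the GENCODE genes.
Irak3, start at the 5′ end of the GENCODE gene: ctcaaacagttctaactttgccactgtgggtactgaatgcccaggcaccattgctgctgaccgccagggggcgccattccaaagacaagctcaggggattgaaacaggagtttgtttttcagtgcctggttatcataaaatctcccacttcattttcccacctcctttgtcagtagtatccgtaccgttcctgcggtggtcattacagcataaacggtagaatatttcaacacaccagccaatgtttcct
Irak3, downstream start: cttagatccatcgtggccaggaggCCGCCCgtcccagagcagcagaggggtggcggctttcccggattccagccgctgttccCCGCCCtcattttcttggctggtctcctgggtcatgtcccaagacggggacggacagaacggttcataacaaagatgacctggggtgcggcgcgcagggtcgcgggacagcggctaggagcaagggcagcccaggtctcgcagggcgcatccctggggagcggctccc
Irak2: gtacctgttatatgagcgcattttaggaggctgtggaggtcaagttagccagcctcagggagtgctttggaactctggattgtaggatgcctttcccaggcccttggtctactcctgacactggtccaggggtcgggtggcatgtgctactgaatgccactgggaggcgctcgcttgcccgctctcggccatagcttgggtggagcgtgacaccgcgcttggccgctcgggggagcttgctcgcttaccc
Myd88: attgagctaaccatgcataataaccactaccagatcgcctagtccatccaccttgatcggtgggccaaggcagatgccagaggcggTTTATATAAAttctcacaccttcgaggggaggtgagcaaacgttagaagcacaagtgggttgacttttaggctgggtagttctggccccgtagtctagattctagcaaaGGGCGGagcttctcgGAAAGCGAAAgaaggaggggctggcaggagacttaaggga
Map3k7: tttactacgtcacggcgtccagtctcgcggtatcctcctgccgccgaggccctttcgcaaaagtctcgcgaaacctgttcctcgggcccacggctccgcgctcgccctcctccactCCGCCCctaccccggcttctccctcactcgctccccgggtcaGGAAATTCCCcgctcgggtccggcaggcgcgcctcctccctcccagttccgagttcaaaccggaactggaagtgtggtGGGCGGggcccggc

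The Irak2 stretch and the Irak3 stretch at the 5′ end of the GENCODE gene held no match to the 6 motifs, and the downstream Irak3 stretch held a pair of GC boxes. Myd88 held the interferon-stimulated response element 40 to 31 bases before its start, a GC box, and a pair of TATAAA matches on opposite strands that overlap by some bases. Over all 32851 starts of the table, 2.98% held that response element, 32.7% a GC box and 12.4% TATAAA in the same window. Map3k7 held the one kappa-B match among the 13 starts, 92 to 83 bases before its start, against 3.90% of all starts. At least one GC box was present at 10 of the 13 starts, which include a pair for Irak1 a few bases apart that share the same box, while TGANTCA and TGACGTCA were absent from all 13 and present at 6.75% and 1.55% of all starts. A match describes the letters and shows no binding.

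Traf6, the ubiquitin ligase that follows the IRAK kinases (ENSMUSG00000027164, chromosome 2, 101678429 to 101701669), was at 738, 771, 703 and 705 in vehicle mice 5 to 8. It was at 967, 924, 898 and 858 in IL-33 mice 1 to 4. The groups were apart, and the spread was narrow in both (coefficient of variation 4.42% and 4.99%). The log2 fold change was 0.32 ± 0.08 (SE, n = 4 per group, limma adjusted p = 0.00189). The log2 ratio of Traf6 to Tollip differed by 0.21 ± 0.10 (SE) between the groups, with overlapping values.

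The genes of the TAK1 complex went different ways. Map3k7, which encodes TAK1 itself (ENSMUSG00000028284, chromosome 4, 31964097 to 32023467), was at 894, 886, 932 and 939 with vehicle and at 1181, 1115, 1015 and 1026 with IL-33. The groups did not overlap, but IL-33 mice 3 and 4 were near the vehicle range. The log2 fold change was 0.25 ± 0.08 (SE, n = 4 per group, limma adjusted p = 0.0145). The call was lost without IL-33 mouse 1 (0.21, limma adjusted p = 0.0595), with quantile normalization (0.16, limma adjusted p = 0.0834) in males alone (0.13, limma adjusted p = 0.307) and by limma without trend (adjusted p = 0.0603).

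Tab2, the ubiquitin-binding partner of TAK1 (ENSMUSG00000015755, chromosome 10, 7905653 to 7956230), was at 3616, 3899, 3482 and 3663 in vehicle mice 5 to 8. It was at 2964, 2834, 2932 and 2586 in IL-33 mice 1 to 4. Values of the groups did not meet, IL-33 being lower in each case, and Tab2 was the one gene of the 10 that fell. The log2 fold change was -0.37 ± 0.07 (SE, n = 4 per group, limma adjusted p = 0.000199).

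Tab3, whose product binds ubiquitin chains as TAB2 does (ENSMUSG00000035476, chromosome X, 85574022 to 85634469), ranged from 164 to 207 with vehicle and from 175 to 227 with IL-33. The ranges overlapped and the log2 fold change was 0.09, with a 95% interval of -0.19 to 0.38 (limma adjusted p = 0.571). Its sign turned without IL-33 mouse 3 (-0.012). Within libraries, the log2 ratio of Tab2 to Tab3 was 4.32 ± 0.10 with vehicle and 3.86 ± 0.12 with IL-33 (SD, n = 4), a difference of -0.47 ± 0.08 (SE), given as a description like the other ratios.

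The order of the levels per kilobase of exon differed between the groups. With vehicle, Tab2 was highest at 597 ± 28.3 normalized counts per kilobase, followed by Irak2 (214 ± 32.6), Irak1 (168 ± 10.5), Map3k7 (142 ± 4.14), Tollip (94.1 ± 4.18), Traf6 (92.5 ± 4.09), Irak4 (75.5 ± 8.10), Myd88 (74.9 ± 3.88), Tab3 (27.5 ± 2.96) and Irak3 (8.83 ± 1.86), as mean and SD of 4 mice. Neighbours overlapped for Irak2 and Irak1, for Tollip and Traf6 and for Irak4 and Myd88, and the other neighbours were apart. With IL-33, Irak2 (517 ± 56.5) stood above Tab2 (461 ± 27.9), with overlapping ranges, and Myd88 (140.0 ± 17.1) and Irak3 (127 ± 14.1) lay between Map3k7 (169 ± 12.2) and Traf6 (116 ± 5.77). From Map3k7 down to Tollip (102 ± 7.33) each neighbour overlapped the next, while Irak1 (218 ± 15.7) above them and Irak4 (62.5 ± 6.65) and Tab3 (29.4 ± 3.53) below were apart from their neighbours. When the longest transcript was taken as the length, the vehicle order was the same, and with IL-33 Myd88 moved from rank 5 to rank 7.

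**Figure D4:**
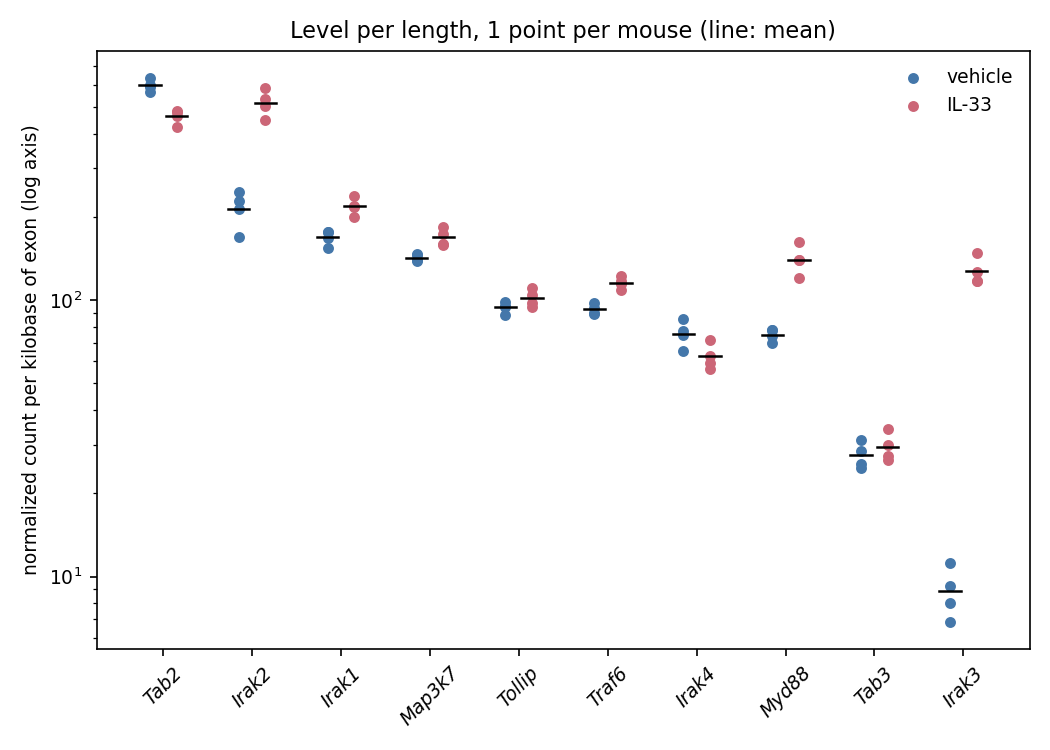
Level of each gene per kilobase of exon on a log axis, 1 point per mouse, with a line at the group mean and genes ordered by their vehicle mean. Irak3 is the lowest gene with vehicle (8.83) and stands at 127 with IL-33, near Myd88 and Traf6, while Tab2 and Irak2 come close to each other with IL-33.

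The authors' deposited table, which lists 7029 genes with adjusted p-values up to 0.00996, holds 6 of the 10 genes. For scale, 15110 genes were tested here and 8716 were called at 0.05. In the authors' deposited table the log2 fold change is 3.85 for Irak3, 1.28 for Irak2, 0.90 for Myd88, 0.37 for Irak1, 0.32 for Traf6 and -0.37 for Tab2. Map3k7, Irak4, Tollip and Tab3 are not among the genes of that list, whose limit is stricter than the 0.05 used here. Map3k7 had a limma adjusted p of 0.0145 here.

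Females and males were compared in the same mice. None of the 10 genes was called for sex by limma (lowest adjusted p = 0.953, and 0 with an unadjusted p under 0.05), where 0.0596% of tested genes were called. The IL-33 effect was 0.46 larger in females for Irak2 (log2, 95% interval 0.08 to 0.84) and 0.66 larger for Irak3 (0.03 to 1.29), with unadjusted limma p of 0.0212 and 0.0416. After adjustment these were 0.492 and 0.566, so 0 of the 10 genes were called for a different effect, where 0.00662% of tested genes were called. Irak3 was 4.15 higher on the log2 scale in the 2 IL-33 females than in the 2 vehicle females, and 3.49 higher in the 2 IL-33 males than in the 2 vehicle males. Irak2 averaged 842 in vehicle females and 2393 in IL-33 females, and 1043 and 2170 in males.

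Other genes of the pathway were read from a list of 42, of which 41 were tested, with 19 higher, 10 lower and 12 not called by limma, where 57.7% of all tested genes were called. Their median log2 fold change was 0.24. Among 8 tested receptors and TIR proteins, 5 rose and 2 fell. Pik3ap1, an adaptor that links Toll-like receptors to PI3 kinase, rose from 1262 ± 294 to 6619 ± 462 (log2 2.41), and Ticam1, the adaptor TRIF, from 457 ± 37.4 to 1521 ± 105 (log2 1.73). Sarm1, a TIR protein known as an NAD-cleaving enzyme, is counted among those that fell, at 23.4 ± 9.28 and 5.09 ± 1.72. It had 3 to 7 reads per IL-33 mouse and passed the filter on low values only through the vehicle mice. Its fall is therefore a description.

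Among 11 Pellino and ubiquitin enzymes with their partners, 4 rose and 1 fell, where 29.2% of all tested genes rose and 28.5% fell. Pellino proteins are ubiquitin ligases that bind IRAK kinases, and their genes diverged. Peli2 fell from 1086 ± 152 to 274 ± 39.5 (log2 -1.98), Peli3 rose from 16.6 ± 4.83 to 54.0 ± 14.1 (log2 1.64), and Peli1, named outside the rule after its values were seen, was not called, at 1439.9 ± 85.1 and 1501 ± 162. Sqstm1, which encodes the TRAF6-binding protein p62, rose by 0.96 on the log2 scale. Its change was 1.31 in females alone and 0.60 in males alone, and the difference of 0.71 had an unadjusted limma p of 0.000917 and an adjusted p of 0.244. Of 6 genes for proteins that remove ubiquitin or assist in it, 3 rose and 2 fell. Tnfaip3, which encodes A20, rose by 4.13, Tnip1, its binding partner, from 123 ± 10.3 to 1353 ± 77.5 (log2 3.45), and Otulin by 0.63.

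The 4 genes of the TAK1 partner TAB1 and of TAK1 phosphatases were all called, 2 up and 2 down. Over all tested genes 57.7% were called, 29.2% up and 28.5% down. Tab1 fell from 104 ± 9.33 to 68.9 ± 9.13 (log2 -0.59), Ppm1l from 494 ± 57.2 to 219.6 ± 38.5 (log2 -1.17), and Ppp6c rose by 0.38. Of 12 kinases after TAK1, 5 rose, 3 fell and 4 were not called. Map2k6, a p38 activator, fell from 153 ± 11.4 to 19.3 ± 5.57 (log2 -2.96). Map3k8, which acts on the ERK arm, rose from 301 ± 122 to 2083 ± 189.9 (log2 2.86), and Mapkapk2, a kinase activated by p38, from 470 ± 19.6 to 3178 ± 312 (log2 2.75).

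**Figure D5:**
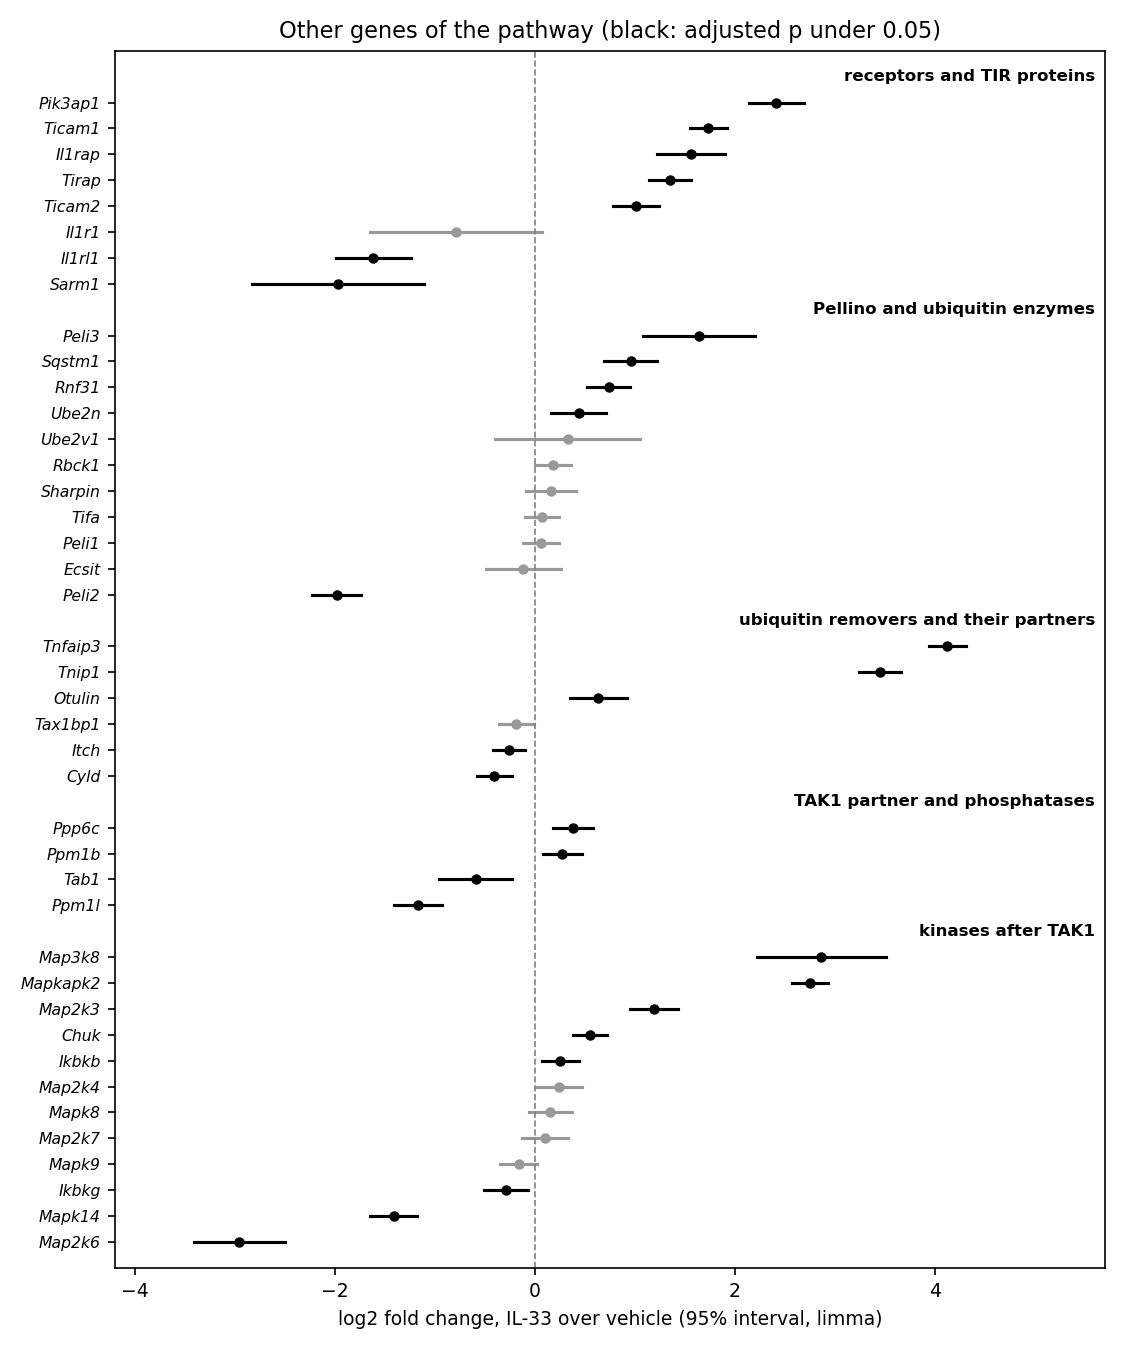
Log2 fold change of IL-33 over vehicle with 95% interval from limma for the 41 tested genes around the chain, grouped by role, in black where the adjusted p was under 0.05. Changes range from -2.96 for Map2k6 to 4.13 for Tnfaip3. Those of the chain genes, a shorter list, range from -0.37 for Tab2 to 3.82 for Irak3.

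The genes whose values over the 8 mice were most like those of the chain genes that rose most are given as a description, by Pearson correlation of log2 values among 10431 genes with a mean of 50 or more. For Irak3 these were Ifnar1 (r = 0.9987), Ticam1 (0.9987) and Sppl2a (0.998). For Irak2 they were Zfp598 (0.997), Purb (0.996) and Tcirg1 (0.996), and for Myd88 they were Rel (0.995), Sel1l (0.995) and Plekho2 (0.995). All 8 points share the 2 treatment groups, and 1272, 732 and 875 genes had r over 0.95 with Irak3, Irak2 and Myd88.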

How the data were processed

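RNA from FACS-sorted cortical microglia (22% Percoll, Nugen Ovation RNA-Seq System V2 per the labels' protocols) was measured in 8 mice. The authors deposited normalized counts per gene, a signal on a linear scale. Dividing each library by its smallest step gave whole reads for 100% of values (tolerance 0.001 reads), so each library had been scaled by 1 factor. Tools named in the submitters' processing notes are DESeq2 1.24.0, HTSeq 0.9.0, STAR 2.6.0 and FastQC, with GRCm38 and mm10 as builds. Neither the annotation release nor the strand setting is stated there. Per the file headers, the authors also deposited mean normalized counts, log2 fold changes with standard errors, a score and p-values. All 8 columns were mapped and 0 were left over.

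Testing was limited to genes that reached 10 normalized counts in 4 libraries or more and was done with limma 3.58.1 (R 4.3.3, trend and robust) on log2(value + 1), with terms for treatment and sex, two-sided, Benjamini-Hochberg over 15110 genes. The pseudocount understates changes of low genes. edgeR 4.0.16 and DESeq2 1.42.0 on recovered reads were alternatives. Coordinates and lengths are from GENCODE M21 (GRCm38), and the symbols of all 10 chain genes matched it. Genes named are the 10 chain genes and, per role of the pathway list, up to 3 called genes with the largest change. For Irak3, Irak2 and Myd88, the 3 most correlated genes are also named. The genes, lists and tests were chosen with earlier results of these data known. Read counts of the 10 genes ran from 27 upward per library, which limits precision most for Irak3 in vehicle mice.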

Additional observations from a re-analysis of the deposited data

How the results depend on the processing

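Under 19 alternatives (pseudocounts of 0.5 and 5, no filter, TMM, quantile normalization, no sex term, limma without trend, edgeR, DESeq2, each mouse left out, and each sex alone), Myd88, Irak1, Irak2, Irak3 and Tab2 were called in the same direction in every one. Their log2 fold changes ranged over 0.76 to 1.02, 0.29 to 0.43, 1.05 to 1.51, 3.49 to 4.15 and -0.47 to -0.34. Irak4 was lower throughout (-0.46 to -0.08) and called in 7 of the 19. Map3k7 lost the call in 4, among them males alone (0.13, limma adjusted p = 0.307), and Traf6 in females alone (0.32, limma adjusted p = 0.0562). Tab3 was never called and changed sign in females alone (-0.064) and without IL-33 mouse 3 (its values with 1 mouse left out ran from -0.012 to 0.15). The count of chain genes called ran from 6 to 8, and that of the other pathway genes from 25 to 30. Over all genes the count ran from 6336 in females alone (41.9% of genes) to 9385 without the filter. With no filter more genes were tested, and the 9385 were 30.7% of them. The highest share over all genes was 58.2%, with a pseudocount of 5. The log2 ratio of Irak3 to Irak4 differed by 4.62 in females and 3.57 in males, and that of Tab2 to Tab3 by -0.31 and -0.63. Each of these values rests on 2 IL-33 and 2 vehicle mice, and a difference between the sexes was not tested for the ratios. Tab1 lost its call in either sex alone and Ppp6c in males alone. All scalings used are relative, and a shift of all RNA in a cell escapes them. No paired analysis was possible because the groups share no mouse numbers.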
